A study of Caenorhabditis elegans with 2 samples.

Results

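The genes described here encode the proteins of the small subunit of the cytosolic ribosome in *Caenorhabditis elegans*. They are the 31 protein-coding genes of the Ensembl annotation of WBcel235 whose symbol is rps followed by a number, rps-0 to rps-30, out of 19973 protein-coding genes on the nuclear chromosomes. Chromatin bound to an anti-GFP antibody was sequenced. It came from whole L4 larvae, aged 47 hours, that had been starved as L1 larvae after bleaching. All larvae were of strain RW12267, with the allele st12267[vab-7::TY1::EGFP::3xFLAG] on chromosome III, a CRISPR insertion at the native vab-7 gene, so the tagged protein is made wherever that gene is active. There was 1 group of 2 biological replicates, and the labels do not say how the cultures were separated. No untagged or input control was analysed here, so whether a peak depends on VAB-7 was not tested. Peak lists carry no expression values, so the stage and the tissues could not be checked against marker genes.

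The small ribosomal subunit binds the messenger RNA and houses the decoding centre, where codons meet the anticodons of transfer RNAs. Its proteins are needed in balanced amounts in every growing cell, and their genes are among the most actively transcribed. VAB-7 is a homeodomain protein of the Even-skipped class, known in the worm for posterior patterning and for the identity of DB motor neurons.

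A summit is the position of highest enrichment within a peak, as given in the authors' lists. The list made from both replicates is called the series list here, and a gene counts as bound if 1 of its summits is at most 1000 bp from the annotated 5′ end. By this rule 19 of the 31 rps genes were bound, 61.3% (exact 95% interval 42.2% to 78.2%), while 5.50% of all protein-coding genes were. A set of 5 strong sites, each found in the separate peak lists of both replicates, is printed here in the direction of the rps gene, with 50 bases on either side of the summit, from the RefSeq genome sequence of WBcel235. They are the sites at rps-24 (chrIV:385487-385587, plus strand), rps-28 (chrIV:1659205-1659305, plus strand), rps-1 (chrIII:4475612-4475712, plus strand), rps-12 (chrIII:5679074-5679174, plus strand) and rps-23 (chrIV:12391262-12391362, minus strand). These are not the 5 strongest sites. Those of rps-19 and rps-20, also in both replicates' lists, had higher signals than that of rps-23 and are not printed. Capitals mark the word CCCCTTTT, which was picked after these windows had been read.
rps-24: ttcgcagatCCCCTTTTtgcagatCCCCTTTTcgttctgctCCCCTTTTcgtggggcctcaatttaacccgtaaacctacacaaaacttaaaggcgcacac
rps-28: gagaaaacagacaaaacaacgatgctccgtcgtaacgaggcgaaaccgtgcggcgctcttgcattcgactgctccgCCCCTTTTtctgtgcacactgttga
rps-1: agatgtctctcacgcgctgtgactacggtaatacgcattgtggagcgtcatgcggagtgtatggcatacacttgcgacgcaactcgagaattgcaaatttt
rps-12: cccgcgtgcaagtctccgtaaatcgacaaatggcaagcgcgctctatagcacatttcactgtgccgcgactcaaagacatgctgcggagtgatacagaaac
rps-23: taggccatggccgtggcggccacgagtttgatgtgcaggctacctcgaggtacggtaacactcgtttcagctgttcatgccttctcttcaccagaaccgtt

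The rps-24 window holds CCCCTTTT 3 times and the rps-28 window holds it 1 time, all on the strand shown. On either strand the word was present in 2 of the 19 windows at rps summits, compared with 2.77% of 795 windows at the strongest summits of other bound genes. None of the 5 printed windows holds TAATTA or TAATGA, words of the kind that homeodomains bind.

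A second set of sites is shown because they share an identical stretch. The summit windows of rps-0 and rps-22 had 16 bases in common, given in capitals, with 20 bases on either side. The same bases lie near rps-30 and rps-20 as well, and all 4 copies read in the direction of the rps gene. The copies printed are at rps-22 (chrIII:1950412-1950467, plus strand), rps-0 (chrIII:4754299-4754354, minus strand) and rps-30 (chrV:7776325-7776380, plus strand), again from RefSeq.
rps-22: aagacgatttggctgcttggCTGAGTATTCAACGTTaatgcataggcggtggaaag
rps-0: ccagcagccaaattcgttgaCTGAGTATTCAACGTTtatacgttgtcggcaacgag
rps-30: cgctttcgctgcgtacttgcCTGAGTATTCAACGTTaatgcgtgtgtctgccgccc

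These copies lay 96 bp upstream of the 5′ end of rps-22, 275 bp upstream of rps-0 and 226 bp upstream of rps-30. Each of the 4 was 41 to 55 bp from the strongest summit of its rps gene. Identical runs between pairs of these sites, the 16 bases included, were 16 to 21 bp long, the longest between rps-22 and rps-30. In the whole genome the word occurred 16 times, and 10 of these sites were within 100 bp of a summit of the series list. Of the 16 sites, 4 were within 1000 bp of the 5′ end of an rps gene and 4 were within 1000 bp of that of a large-subunit gene (rpl-7A, rpl-13, rpl-32 and rpl-39). Together these were 7 sites, since rps-30 and rpl-39 share 1, while 0.155% of the genome lies that close to the 5′ end of a ribosomal protein gene. Among the 7 sites near ribosomal protein genes 5 were within 100 bp of a summit, as were 5 of the other 9. The word was chosen after the windows had been seen, so these counts describe it and test nothing.

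The planned motifs were counted on both strands in promoters, taken from 250 bp before to 50 bp after the 5′ end. TAATTA was in 6 of the 31 rps promoters (19.4%) and in 15.6% of all promoters. TAATGA was in 5 rps promoters (16.1%) against 20.1%, and TATAAA, the core of a TATA box, in 9 (29.0%) against 38.0%. TTTCAG, the usual end of a worm intron and of the sequence before a trans-splice site, was in 19 (61.3%) against 51.7%. GCGCGC and CTGCGTC were each in 1 rps promoter, beside 3.58% and 4.34% of all promoters. GGTTCGA, part of the internal promoter of transfer RNA genes, was in none of the rps promoters and in 1.43% of all. Every exact interval of these rps shares holds the share of all promoters.

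The same words were counted in the 19 windows at the strongest rps summits and in the 795 windows at other bound genes. TAATTA was in 1 rps window (rps-0, 5.26%) and in 1.89% of the others, TAATGA in 1 (rps-3) beside 2.64% and TATAAA in 1 (rps-13) beside 3.77%. GCGCGC was in 1 (rps-12) beside 11.3%, and TTTCAG in 2 (rps-14 and rps-23) beside 7.30%. CTGCGTC and GGTTCGA were in none, beside 7.55% and 8.81%. A count of 0 in 19 windows has an exact interval that reaches 17.6%. Words picked after the windows were seen were present more often, CTGAGTA in 4 (rps-0, rps-15, rps-20, rps-22) beside 1.64% of other windows and CAGCCAA in 5 (the same 4 and rps-19) beside 2.77%. CTGAGTA is the start of the 16-base word. ACTCAG, whose reverse complement shares the letters CTGAGT with it, was in 6 windows (rps-13 and the 5 just named) beside 3.40%. Base composition also varied, with a median of 46.5% G or C (36.6% to 55.4%) at rps summits and 50.5% at the other 795.

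The strongest sites were upstream of genes for proteins on the surface and in the head of the subunit as well as near its functional centres. They are given with the signal, the peak caller's value for a peak, and with its rank among the 1815 peaks of the series list. The normalization of the signal is not stated, so values from different lists stand side by side here and are not compared as amounts. Highest was rps-24 (chromosome IV, 385887 to 386606, plus strand), a protein of the subunit body, with a summit 350 bp upstream, a signal of 369 and rank 26. In the replicates' own lists that site had a signal of 186 in replicate 1 and 192 in replicate 2. Next was rps-28 (chromosome IV, 1659691 to 1659997, plus strand), a protein near the path by which the messenger leaves, with a signal of 300 and rank 64, 436 bp upstream. Replicate 1 gave it 149 and replicate 2 gave it 139. Both genes were therefore among the upper sites of each replicate.

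The gene rps-19 (chromosome I, 9625049 to 9625796, minus strand) encodes a head protein needed in human cells for maturation of the small-subunit RNA. Its site had a signal of 295 (rank 67), 283 bp upstream, with 162 in replicate 1 and 137 in replicate 2. The rps-1 gene (chromosome III, 4475918 to 4476876, plus strand) is the counterpart of human RPS3A. It had a signal of 270 (rank 96), 256 bp upstream, with 167 in replicate 1 and 113 in replicate 2. For rps-12, a protein of the beak of the subunit (chromosome III, 5679298 to 5680187, plus strand), the signal was 217 (rank 205), 174 bp upstream. Replicate 1 gave this site 103 and replicate 2 gave it 121.

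A pair of genes had nearly the same values. The rps-20 gene, for a head protein, had a signal of 204 at 249 bp upstream (rank 244), with 124 in replicate 1 and 85.7 in replicate 2. The rps-23 gene, for a protein at the decoding centre, had 202 at 259 bp upstream (rank 253), with 124 and 83.9. The rps-26 gene, for a protein of the channel by which the messenger leaves, had 171 at 420 bp upstream (rank 377), with 99.6 and 73.9. The rps-15 gene, for a head protein close to the decoding centre, had 142 at 356 bp upstream (rank 544), with 70.5 and 73.1. In these 9 genes, and in no other rps gene, the strongest peak overlapped a peak in the list of each replicate by at least 1 bp. All 9 had their summit upstream, between 174 and 436 bp from the 5′ end, and the replicates' summits lay within 16 bp of it in replicate 1 and within 45 bp in replicate 2. Their ranks were 35 to 700 of 1014 peaks in replicate 1 and 20 to 455 of 1119 in replicate 2.

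**Figure D1:**
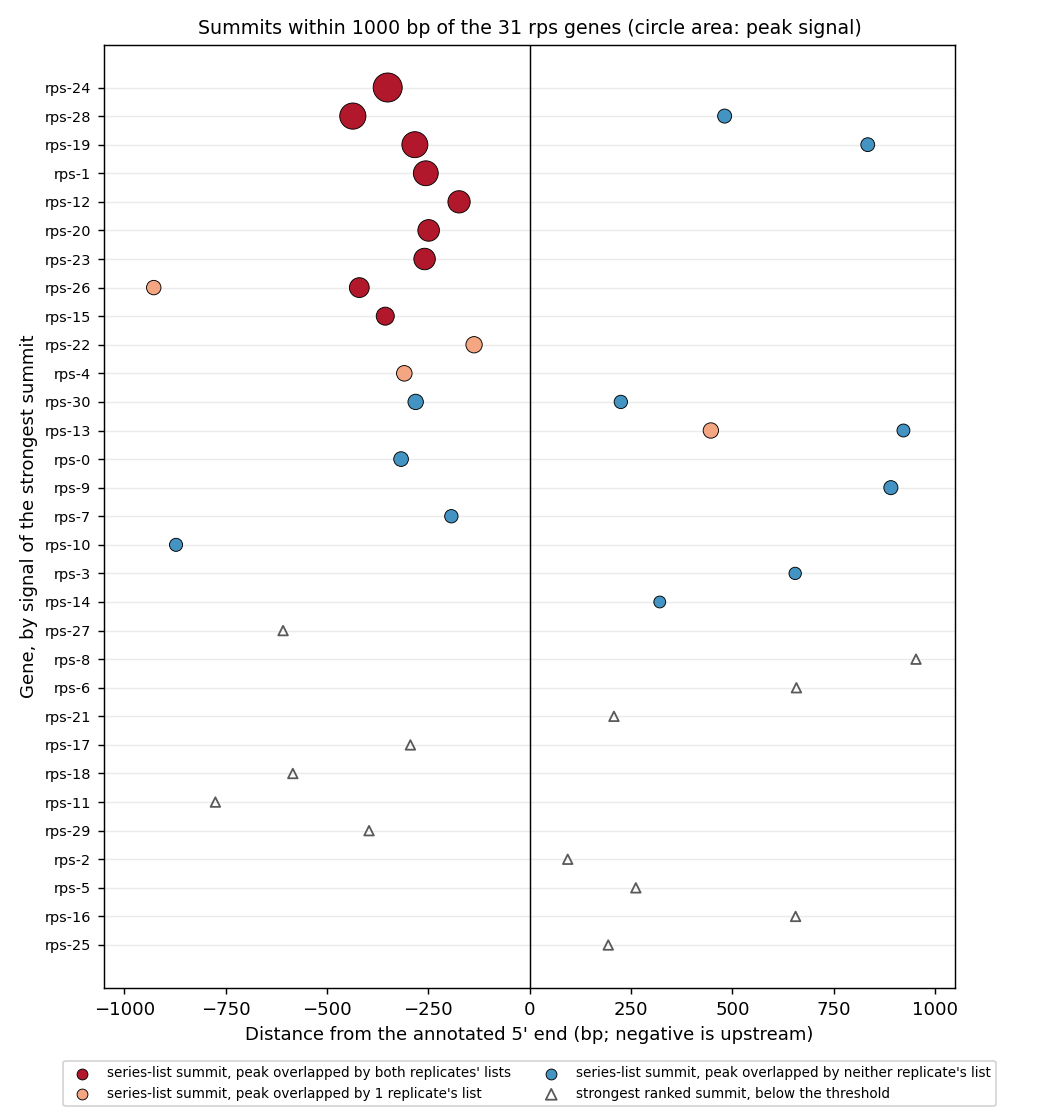
Summits of the series list within 1000 bp of the 5′ end of each bound rps gene, by distance along the gene's strand in bp (x axis) and gene (y axis); the size of a point follows the signal and the colour the number of replicate lists that overlap the peak. The 9 peaks overlapped by both replicates' lists all lie between 174 and 436 bp upstream.

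A middle group of 3 genes had a peak that overlapped the list of 1 replicate, with signals from 103 to 117. For rps-22, the counterpart of human RPS15A, the summit was 137 bp upstream (signal 117, rank 759) and the site was in the list of replicate 2 (62.7). Replicate 1 had 52.7 there in its ranked list, which also holds peaks that miss its threshold, and instead listed a summit 533 bp downstream (55.8). For rps-4 the summit was 309 bp upstream (signal 106, rank 896), in the list of replicate 1 (76.2), while the ranked value of replicate 2 was 24.4. For rps-13, a protein at a contact with the large subunit, the summit was 447 bp downstream in an intron (signal 103, rank 949), with 79.0 in the list of replicate 1 and 28.1 in the ranked list of replicate 2.

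The strongest peak of 7 further bound genes overlapped the thresholded list of neither replicate, and these had signals from 61.5 to 104, beside a median of 105.3 over the whole series list. The rps-30 gene, whose protein is made as a fusion to a ubiquitin-like protein, had a summit 281 bp upstream (104), with ranked values of 65.5 in replicate 1 and 39.6 in replicate 2. The rps-0 gene, the counterpart of the human laminin receptor protein RPSA, had one 317 bp upstream (94.2), with 60.2 and 39.0. In both genes the 16-base word printed above lies on the side of the summit that faces the rps gene.

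The others were weaker or lay elsewhere in the gene. The rps-7 gene had a summit 193 bp upstream (78.2; ranked values 42.6 and 40.9). Replicate 1 listed another summit for it, 972 bp downstream (72.8). The rps-9 gene, whose bacterial counterpart starts the assembly of the subunit, had its summit in its own coding exon, 891 bp downstream (86.8; ranked values 58.6 and 31.6). The same held for rps-3, for a protein at the messenger's entry channel, 655 bp downstream (66.9; 52.8 and 22.3). The rps-14 gene, for a protein of the platform, had its summit in its own intron, 321 bp downstream (61.5; 29.0 and 41.0). The rps-10 gene, for a protein that is ubiquitylated in human cells when ribosomes collide, had its summit 872 bp upstream (75.1; 47.2 and 19.97), inside the snoRNA gene D1007.20 in an intron of rpl-24.1. Each of these 7 peaks was 304 bp wide, while the 9 peaks found in both replicates' lists were 106 to 304 bp wide.

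**Figure D2:**
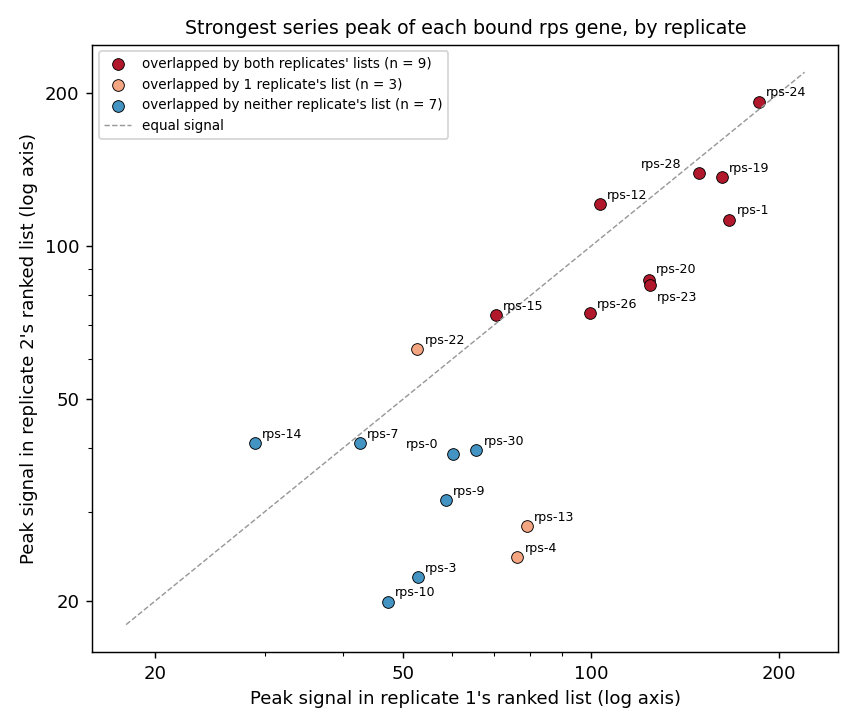
Signal of the strongest series peak of each of the 19 bound rps genes in the ranked list of replicate 1 (x axis, log scale) and of replicate 2 (y axis, log scale), in the peak caller's units; colours give the number of thresholded replicate lists that overlap the peak. The 9 peaks overlapped by both sit at 70.5 or more in replicate 1 and 73.1 or more in replicate 2, above the 7 overlapped by neither in both replicates. The groups and both axes come from the same replicates' peaks, so this separation is not independent of the grouping.

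Signal, replication and position went together among the bound genes. The median signal was 217 for the 9 peaks found in both replicates' lists, 106 for the 3 found in 1 and 78.2 for the 7 found in neither, and the first group did not overlap the other groups. The thresholded series list was made from the reads of both replicates, so its signal and the replicates' values are not independent. The 15 upstream summits had a median signal of 171 and the 4 downstream ones 76.8. Of the 19 summits 14 were in intergenic sequence, 3 in introns and 2 in coding exons. No share over all bound genes is given for these places, so they are not read as particular to rps genes.

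Bound rps genes resembled other bound genes in most of the measures that were counted for both. A summit on the upstream side was found for 78.9% of bound rps genes and 78.6% of all bound genes. The median position was −259 bp for rps genes (−872 to 891) and −225 bp for all bound genes, with negative values upstream. The median signal of the strongest summit was 117 and 109, and the share overlapped by both replicates' lists was 47.4% and 38.8%.

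A further summit within 1000 bp was present at 5 bound genes. These were weaker, with signals from 72.9 at rps-13 (922 bp downstream) to 91.4 at rps-26 (927 bp upstream). Those of rps-19, rps-28 and rps-30 lay 834, 481 and 225 bp downstream, with signals of 83.8, 86.2 and 77.9. Of the 5 only that of rps-26 overlapped a thresholded replicate list, that of replicate 1 (60.5). In all, 24 distinct summits served 19 genes, and no 2 rps genes shared one. How many of all bound genes have a further summit is not given, so the count of 5 is not read as particular to rps genes.

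The count of bound rps genes depended on which list was read. It was 15 in the conservative list of the series, in which 5.13% of all protein-coding genes were bound, and rps-3, rps-4, rps-10 and rps-14 were the ones missing. The list of replicate 1 alone gave 13 rps genes and 3.10% of all genes. The list of replicate 2 alone gave 11 and 3.44%, 10 of them among the 19 and the other rps-16, with a summit 376 bp upstream and a signal of 48.0. Bound in both replicates' lists were 10 rps genes, and 14 were bound in at least 1. The 10 include rps-22, for which the replicates listed different summits, and the 14 include rps-16. No share over all genes is given for either count, so they are not read as particular to rps genes. Peaks of the series list overlapped by both replicates' lists gave 9 rps genes and 2.14% of all genes. The share of rps genes was above the share of all genes wherever the latter is given here, with the lowest exact interval beginning at 14.2%.

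**Figure D3:**
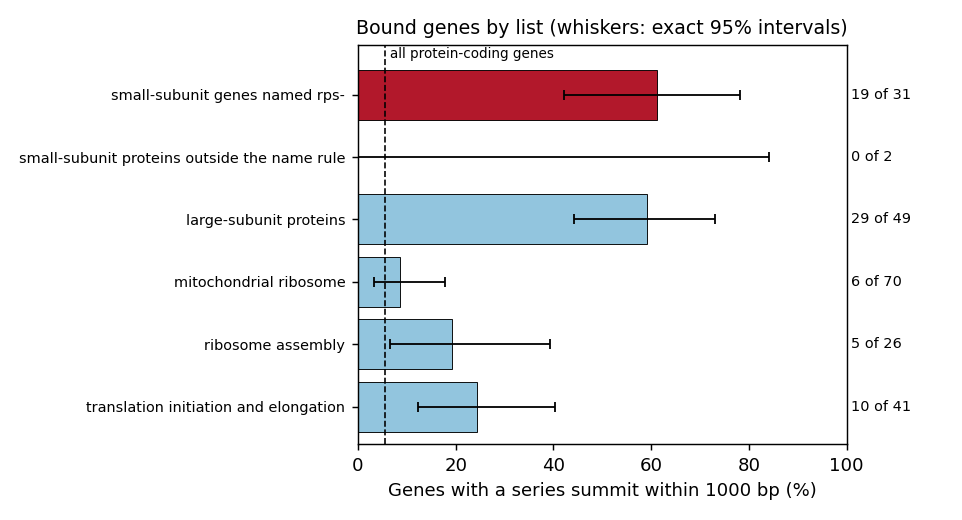
Share of bound genes (x axis, percent) for the rps genes, the related gene lists and all protein-coding genes in the series list, with exact 95% intervals as whiskers. The rps genes (61.3%) and the large-subunit genes (59.2%) lie above the mitochondrial ribosome, assembly and translation factor lists.

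Related genes were counted by the same rule. Of the 49 large-subunit genes, 29 were bound (59.2%, exact 95% interval 44.2% to 73.0%), with signals of 697 at rpl-3, 477 at rpl-15, 443 at rpl-20 and 433 at rpl-35 the highest. All 4 exceeded the strongest rps gene, rps-24. The strongest summits of rps-10, rps-14 and rps-30 also lay within 1000 bp of the 5′ ends of rpl-24.1, rpl-36 and rpl-39, in that order. Those sites count for both the rps and the large-subunit genes, so the 2 shares are not independent. Genes for the mitochondrial ribosome were bound in 6 of 70 cases (8.57%, 3.21% to 17.7%), led by mrpl-23 (206) and mrpl-15 (137). Ribosome assembly genes were bound in 5 of 26 cases (19.2%, 6.55% to 39.4%), with larp-1 (214), which binds ribosomal protein messengers in mammals, and ruvb-1 (164) the strongest. Translation initiation and elongation genes were bound in 10 of 41 cases (24.4%, 12.4% to 40.3%), with iff-2 (249.9) and eef-2 (157) the strongest. The ubl-1 and rack-1 genes encode small-subunit proteins but have other names, and neither was bound in the series list. Of the 2, ubl-1 was bound in the conservative list and in that of replicate 2. The interval of the rps genes overlapped that of the large-subunit genes and did not overlap those of the mitochondrial ribosome, assembly and translation lists. Over the 11 settings tried, this one included, it overlapped that of the mitochondrial ribosome in 0, but those of the assembly and translation lists in 8 each, among them the conservative list and each replicate's own list. The differences were not tested.

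The shares were close for rps genes of either evolutionary class. Of the 15 genes whose protein has a counterpart in bacteria 9 were bound (exact 95% interval 32.3% to 83.7%), and of the 16 without one 10 were (62.5%, 35.4% to 84.8%). By chromosome, 6 of 8 were bound on chromosome I, 7 of 9 on chromosome III, 1 of 1 on chromosome II, 4 of 10 on chromosome IV and 1 of 3 on chromosome V. Over all protein-coding genes the share was 8.41% on chromosome I, 8.30% on III, 5.22% on II, 4.75% on IV and 3.30% on V. The X chromosome carries no rps gene.

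The 12 unbound genes were rps-2, rps-5, rps-6, rps-8, rps-11, rps-16, rps-17, rps-18, rps-21, rps-25, rps-27 and rps-29. The nearest to the limit were rps-6, for the protein that S6 kinase phosphorylates, with a summit 1189 bp downstream of its 5′ end (signal 100.9), and rps-16, with one 1743 bp upstream (120.7). Inside the limit the farthest strongest summits were those of rps-9 (891 bp) and rps-10 (872 bp). The summit nearest to rps-16 lay 61 bp upstream of fib-1, the gene for the nucleolar methyltransferase fibrillarin. The end of fib-1 is 109 bp upstream of rps-16 on the same strand, and fib-1 was looked up after these values had been seen. For the other 10 genes the nearest summit was between 7891 bp (rps-17) and 245199 bp (rps-27) away. For rps-21 it was the summit inside rps-14, 10364 bp off.

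Peaks below the threshold were present near all 12. In the pooled ranked list the strongest peak within 1000 bp had a signal from 27.8 (rps-25) to 78.1 (rps-27). The score of that list rescales its reproducibility rank, and the series list begins at a score of 830. The rps-27 peak, 608 bp upstream, had a score of 805. The rps-8 peak, 953 bp downstream, had 766 with a signal of 74.2, and the rps-11 peak, 775 bp upstream, had 611 with 53.5. The rps-2 gene, for a protein at the entry channel, had 495 (signal 47.6, 94 bp downstream). Signals of rps-27 and rps-8 were above those of the bound genes rps-3 and rps-14, so it was the score, not the signal, that separated them. The remaining 8 had scores from 60 (rps-21) to 449 (rps-18). The ranked list holds 88007 peaks, and 66.1% of the 18874 unbound protein-coding genes had 1 or more of them within 1000 bp.

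Bound and unbound genes were alike in size and base composition. Their median lengths were 772 and 708 bp, their median distances to the upstream neighbour were 532 and 543.5 bp, and the median G or C content of their promoters was 33.2% in both. The strongest ranked signal within 1000 bp had a median of 76.2 for bound and 36.4 for unbound genes in replicate 1 and 62.7 and 26.4 in replicate 2. One unbound gene, rps-2, had no ranked peak in replicate 2 there. The series list was made from these same reads, so this difference in signal follows in part from the rule.

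The orientation of the upstream neighbour differed between them. Of the 19 bound genes, 17 had their nearest upstream gene on the opposite strand, and 5 of the 12 unbound genes did. Counted within 1000 bp, 19 rps genes had such a divergent neighbour, and 15 of them were bound (78.9%, exact 95% interval 54.4% to 93.9%). Not all of these 15 had their strongest summit between the divergent genes. In rps-3, rps-9, rps-13 and rps-14 it was downstream, inside the rps gene. In rps-10 it was inside rpl-24.1, beyond the 5′ end of that neighbour. Of the 8 rps genes with a neighbour on the same strand within 1000 bp, 2 were bound (exact 95% interval 3.19% to 65.1%), rps-4 and rps-7. Of 4 genes with a neighbour farther away, 2 were bound, rps-24 and rps-28, which are the 2 strongest. The intervals of the first and second class overlap.

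**Figure D4:**
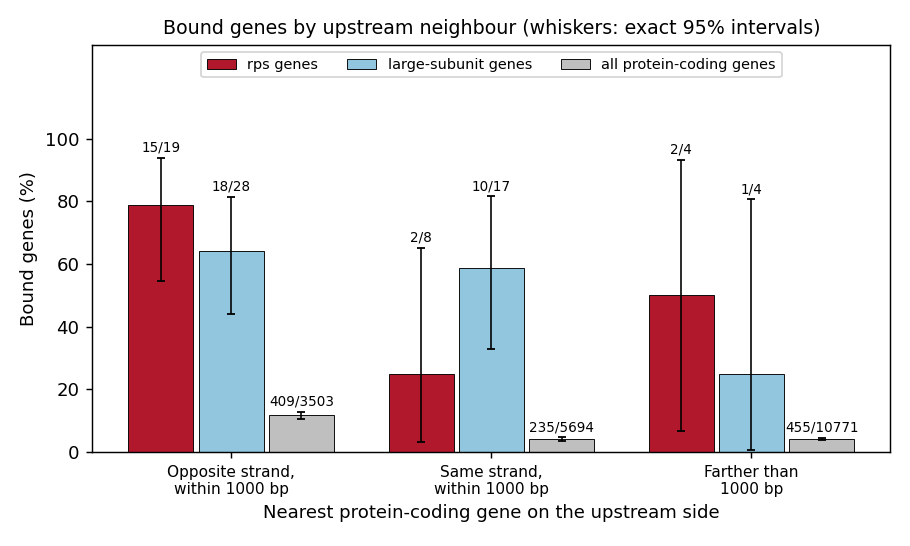
Share of bound genes (y axis, percent) by the strand and distance of the nearest upstream protein-coding gene, for rps, large-subunit and all protein-coding genes; whiskers are exact 95% intervals and labels give bound genes over genes in the class. For rps genes the share is 78.9% (15 of 19) with a divergent neighbour, and 2 of 8 are bound with one on the same strand. Bound genes are counted wherever the summit lies within 1000 bp, also inside the rps gene.

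The same split over all protein-coding genes was 11.7% for divergent neighbours (of 3503 genes), 4.13% for same-strand neighbours (of 5694 genes) and 4.22% for the rest (of 10771 genes). A divergent neighbour within 1000 bp was present for 61.3% of rps genes and for 17.5% of all genes. Large-subunit genes were bound in 18 of 28 cases with a divergent neighbour (64.3%) and in 10 of 17 with one on the same strand (58.8%). Among the 4 rps genes whose same-strand neighbour was under 500 bp away, as in an operon, 1 was bound, beside 4.35% of all such genes. A summit between divergent genes is near the 5′ ends of both, so such a summit can count for both.

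Most rps summits were near the 5′ end of another gene as well. Of the 19 strongest summits, 15 were also within 1000 bp of the 5′ end of another protein-coding gene. No share over all bound genes is given for this count or for the partner counts that follow. They are therefore not read as particular to rps genes. Among the 15, rps-3 and rps-28 had their nearest partner on the same strand, and rps-13 and rps-14 had a downstream summit. For 11 genes the summit was upstream and the partner divergent. In 3 of these pairs the partner has a role in translation or its control. The rps-30 summit was 218 bp from rpl-39 and the rps-10 summit 262 bp from rpl-24.1, both large-subunit genes, and the rps-1 summit was 512 bp from ifet-1, a translational repressor gene. The other partners have unrelated or unstated roles, among them hsr-9 (162 bp from the rps-19 summit), ska-3 (119 bp from that of rps-12), polh-1, a DNA polymerase gene (129 bp from that of rps-22), and dpm-3 (275 bp from that of rps-23). The rest were rbg-3 (56 bp, rps-0), tmem-107 (37 bp, rps-26), ekl-4 (148 bp, rps-20) and F36A2.9 (425 bp, rps-15).

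**Figure D5:**
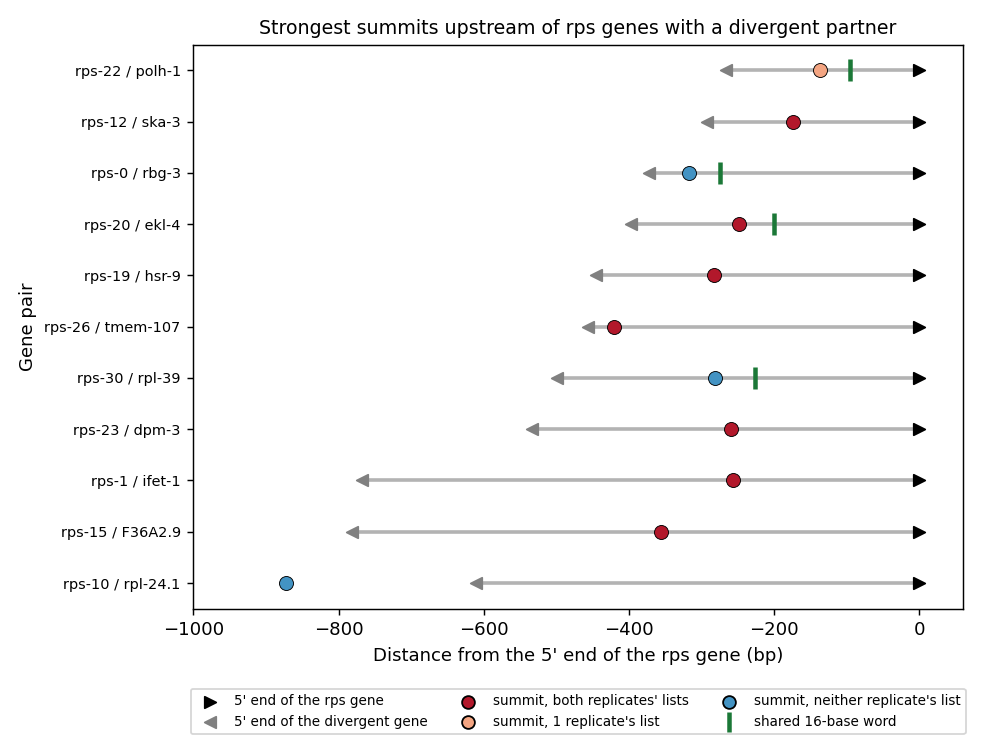
Strongest summits of the 11 rps genes with an upstream summit and a divergent partner. The x axis is the distance from the 5′ end of the rps gene in bp and the y axis the gene pair. Arrowheads mark both 5′ ends and green bars the 16-base word. In 8 of the 11 pairs the summit is nearer to the partner, and the rps-10 summit lies beyond the 5′ end of rpl-24.1.

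In 8 of these 11 pairs the summit lay nearer to the 5′ end of the partner than to that of the rps gene. The exceptions were rps-1, rps-15 and rps-23. Over all 19 genes, the nearest protein-coding 5′ end was another gene's in 9. Which gene of a pair a site belongs to cannot be told apart from its position. Counting only genes that are the nearest to a summit, a rule added after the data had been seen, 12 rps genes were bound, and 4.12% of all protein-coding genes. The sites at rps-24, rps-4, rps-7 and rps-9 had no other 5′ end within 1000 bp.

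Small RNA genes lay within 200 bp of 3 of the strongest summits, at rps-10, rps-13 (C16A3.11) and rps-26 (F39B2.14), and all 3 were snoRNA genes. This is 15.8% of bound rps genes, beside 17.2% of all bound genes with a small RNA gene there. Without summits at small RNA genes 17 rps genes and 4.60% of all protein-coding genes were bound, and rps-13 kept its further summit. The part of snoRNA transcription in these 3 peaks was not tested.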

How the data were processed

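Peaks came from chromatin immunoprecipitation with sequencing of 2 biological replicates in 1 group. Per the labels, reads were placed on ce11. Aligner and peak caller: not given in the sources used here; the same is true of depth and of how a control entered. The authors deposited a signal for each peak, the caller's value with unstated normalization, and a score, at most 1000, that rescales the irreproducible discovery rate (IDR), a measure of how repeatable a peak's rank is. Both were deposited in 7 lists used here: the series list (1815 peaks), a conservative list (1732), thresholded lists of replicates 1 and 2 (1014 and 1119), and ranked lists of each replicate and of both pooled. Peak offsets added to peak starts gave summits.

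Positions were compared with Ensembl release 115 gene models and the RefSeq WBcel235 sequence, the assembly behind ce11, with Python 3.11.15, scipy 1.17.1 and numpy 2.4.6, and drawn with matplotlib 3.10.9. A gene's strongest summit is the one of highest signal within 1000 bp. Intervals are exact (Clopper-Pearson, 95%) and cover the sampling of genes only, since neighbours share summits and read counts are unknown. With 1 group no condition was compared and no test was run. The summit search was tested on simulated data with planted summits.

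The members and lists were chosen with earlier results of these data known. Every member is named; other genes are named as partners at a shared summit or as the strongest of their list, at most 4. Of the 28 assembly symbols, bud-23 and nmd-3 were not found in the annotation. Alternatives varied the distance, list, threshold, overlap, transcript start, window and treatment of small RNA genes. The sequence words that the text calls picked or chosen afterwards and the nearest-gene rule were added after the data had been seen.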

Additional observations from a re-analysis of the deposited data

How the results depend on the processing

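Of the counts, shares and positions recomputed under other settings, 26 stayed near the reported value, 13 moved and 0 reversed. A count or share has no sign, so only the median position could have reversed. Near means within 1.5 times for a count or share, and within the SD of the replicates' values for the median position. The count of 19 bound rps genes fell to 11 for peaks at or above the median signal, to 9 for peaks overlapped by both replicates' lists and to 12 when only the nearest 5′ end was counted. It was 11 to 13 when either replicate was left out, that is, in the other's own list. Without replicate 1, the genes rps-0, rps-3, rps-4, rps-7, rps-9, rps-10, rps-13, rps-14 and rps-30 were lost and rps-16 gained. Without replicate 2, rps-0, rps-3, rps-9, rps-10, rps-14 and rps-30 were lost. The share of all genes bound (5.50%) was 2.89% at or above the median signal, 2.14% with both replicates, 4.12% by the nearest 5′ end and 3.1% to 3.44% with a replicate left out. In the same order, the count over the related lists (50) was 25, 19, 39 and 28 to 31. The median position of −259 bp was −287 to −263 bp. A limit of 500 bp gave 16 rps genes and 3.74% of all genes, 2000 bp gave 21 and 8.15%, and the 5′ end of any transcript gave 20 and 6.03%. The overlap with both replicates was 9 under each definition tried. For 6 motifs the share of summit windows lay outside the exact 95% interval of the share of rps promoters. The summit windows are shorter than the promoters and come from bound genes only. These shares are therefore not like for like, and no difference between summits and promoters is read from them. The part of window length was not tested. No paired analysis was possible because there was 1 group and no contrast between conditions. Read depth is unknown, so which weak sites it limits cannot be stated.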
